A study of Homo sapiens with 16 samples.

Results

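The mRNAs of 10 genes that write or maintain repressive chromatin were followed across the 16 RNA-seq libraries of the series. They were chosen by symbol, as 6 genes of Polycomb repressive complex 2 (PRC2: EZH2, EZH1, EED, SUZ12, RBBP4 and JARID2) and 4 genes of DNA methylation (DNMT1, UHRF1, HELLS and DNMT3A), out of the 20531 entries of the count table. Each of the 10 symbols matched 1 entry, and each passed the filter on low counts in every comparison. LNCaP, an androgen-sensitive line of human prostate cancer cells, received a nonsense siRNA as the control (NS) or a mix of siRNAs that target SLIRP, an RNA-binding protein that binds the androgen receptor. The cells then went into serum-free medium with ethanol vehicle (Veh) or 1 nM of the androgen dihydrotestosterone (DHT). There were 4 groups of 4 libraries each: control cells in vehicle (NS-Veh) or DHT (NS-1nM DHT), and knockdown cells in vehicle (SLIRP-Veh) or DHT (SLIRP-1nM DHT). All groups were transfected, so none shows untreated cells, and the siRNAs against SLIRP were used only as a pool. The replicates came from 2 experiments, but the labels do not say which library belongs to which, so values within an experiment cannot be given.

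PRC2 places methyl groups on lysine 27 of histone H3 (H3K27), a mark of silenced genes. EZH2 and EZH1 are its alternative catalytic subunits, EED binds the finished mark, SUZ12 holds the core together, RBBP4 contacts histones and JARID2 helps to bring the complex to its targets. DNMT1 copies DNA methylation onto the new strand after replication, UHRF1 recruits it to half-methylated sites, HELLS is a remodelling ATPase needed for methylation of packed chromatin, and DNMT3A methylates DNA that was unmethylated before. EZH2 is known for high levels in advanced prostate cancer, and EZH2, DNMT1, UHRF1 and HELLS are known to be more abundant in dividing than in resting cells, while EZH1 is also found in resting cells.

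The knockdown could be read in every library. SLIRP, listed under its older symbol C14orf156, lay between 45.1 and 63.4 CPM (counts scaled to a common library total) in the 8 NS libraries and between 1.41 and 8.04 CPM in the 8 SLIRP siRNA libraries, a fitted log2 fold change of -3.89 (standard error 0.21). Library totals ran from 436353 to 1689708 counts. NS-Veh replicates 1 and 2 were the shallowest, with 512925 and 436353 counts, so that 3 counts in them stand for 6 and 6.95 CPM. EZH2 had 5 and 8 counts there and UHRF1 5 and 5, which makes the level of these genes in NS-Veh imprecise. The 10 luminal prostate markers, all detected, summed to between 4732.4 and 5330.5 CPM in NS and between 3515.8 and 4096.4 CPM in SLIRP siRNA libraries, a difference whose part in the results was not tested. The basal markers KRT5 and TP63, the leukocyte markers PTPRC and CD3E, the fibroblast marker DCN and the endothelial marker PECAM1 had 0 counts in all 16 libraries. The summed levels over the libraries were 0 to 1.54 CPM for 3 basal, 11.5 to 26.3 CPM for 4 fibroblast, 0 to 7.83 CPM for 3 leukocyte, 2.37 to 17.4 CPM for 2 endothelial and 18 to 38.6 CPM for 3 neuroendocrine markers. In bulk RNA, fewer cells of a type and less RNA per cell cannot be told apart.

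Promoters were compared because EZH2, DNMT1, UHRF1 and HELLS moved together, as described below. The sequences are RefSeq windows on GRCh38.p14, printed from 140 bases before the transcription start to 20 bases from it. Capitals mark the letters TTTNNCGC on either strand, an E2F-type word. E2F factors are the regulators that switch on many genes at the start of DNA replication. EZH1 is shown with the 4 because it is the paralog of EZH2.
EZH2 (chr7:148884272-148884431, minus strand): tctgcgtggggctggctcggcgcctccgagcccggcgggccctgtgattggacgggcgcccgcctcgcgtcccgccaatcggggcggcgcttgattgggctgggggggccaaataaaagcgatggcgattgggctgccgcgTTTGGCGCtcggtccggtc
DNMT1 (chr19:10194934-10195093, minus strand): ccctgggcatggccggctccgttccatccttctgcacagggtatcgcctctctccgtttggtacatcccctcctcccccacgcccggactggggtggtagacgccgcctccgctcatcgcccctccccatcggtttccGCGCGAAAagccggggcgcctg
UHRF1 (chr19:4909361-4909520, plus strand): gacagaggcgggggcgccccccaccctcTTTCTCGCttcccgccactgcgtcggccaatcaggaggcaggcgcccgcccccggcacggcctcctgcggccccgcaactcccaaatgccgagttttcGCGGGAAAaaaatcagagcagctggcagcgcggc
HELLS (chr10:94545648-94545807, plus strand): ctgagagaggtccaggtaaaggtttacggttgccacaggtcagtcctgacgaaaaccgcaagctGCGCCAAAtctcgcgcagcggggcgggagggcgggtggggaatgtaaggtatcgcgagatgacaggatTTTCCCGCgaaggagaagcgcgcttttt
EZH1 (chr17:42745021-42745180, minus strand): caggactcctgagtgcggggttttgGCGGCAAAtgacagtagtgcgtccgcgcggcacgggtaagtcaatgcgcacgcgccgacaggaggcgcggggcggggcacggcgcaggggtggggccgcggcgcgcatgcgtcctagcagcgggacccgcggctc
Within the first listed window of 300 bases, all 4 genes that moved together held the word, against 2 of the other 6, EZH1 and SUZ12. Of 27305 genes, 6.90% held it in their first window. The word contains the pair CG, and the members' windows were rich in it. The pair occurred 46 times for EZH2, 30 for DNMT1, 36 for UHRF1 and 22 for HELLS. It occurred between 16 (EED) and 42 (RBBP4) times in the other 6, against a median of 14 over all first windows. The part of base composition in the share with the word was not tested. UHRF1 and HELLS each held it at 2 places. The letters CCAAT, also on either strand, occurred in 3 of the 4 and in 4 of the other 6, against 35.7% of all genes. The letters TTTGAA occurred in 0 of the 4 and in 1 of the 6, SUZ12, against 15.4%. UHRF1 and EZH2 also have later start sites, and in 1 of the 2 further UHRF1 windows and 0 of 1 for EZH2 the E2F-type word was present. None of the 3 words contains another. A match of letters is a description and no evidence of binding.

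The levels of the members were ordered per kilobase of the canonical transcript. In NS-Veh, RBBP4 (47.3 ± 2.54 CPM per kilobase, SD, n = 4) and SUZ12 (34.5 ± 2.74) stood above the rest and did not overlap with each other. JARID2 (11 ± 1.06) and DNMT1 (10.7 ± 2.84) came next, and EZH2 (7.02 ± 2.40), EED (6.90 ± 2.05), HELLS (5.23 ± 0.942), UHRF1 (4.65 ± 2.35), EZH1 (4.56 ± 1.35) and DNMT3A (4.33 ± 0.393) followed. From JARID2 downward, each neighbour in this order overlapped the next in its range over libraries. In SLIRP-1nM DHT the order was RBBP4 (49.9 ± 5.47), DNMT1 (38.3 ± 7.46), SUZ12 (35.4 ± 10.6), HELLS (30.9 ± 6.22), EZH2 (22 ± 4.41), UHRF1 (19.5 ± 4.47), EED (13.8 ± 5.65), JARID2 (9.86 ± 0.57), EZH1 (6.54 ± 0.47) and DNMT3A (3.04 ± 1.27). From RBBP4 to JARID2 each gene overlapped its neighbour, and EZH1 lay below all JARID2 libraries and above all DNMT3A libraries. These levels assume the canonical transcript, which for RBBP4 and DNMT3A is mostly 3′ untranslated sequence.

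**Figure D1:**
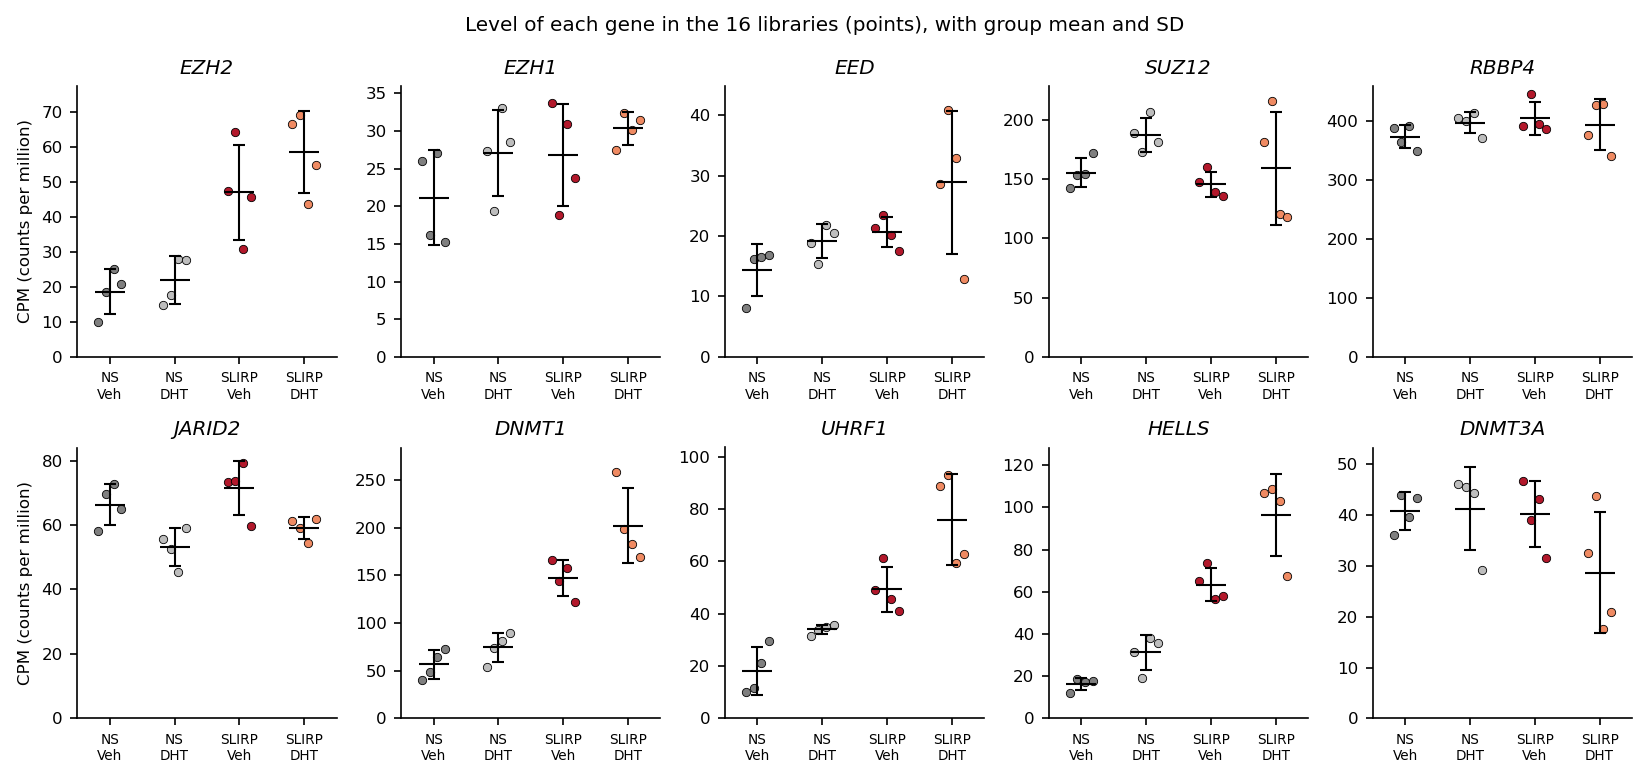
Level of each of the 10 genes in CPM (vertical axis, from 0, its own scale per gene) in the 4 groups (horizontal axis). Each point is 1 library, bars are the mean and SD of 4 libraries. EZH2, DNMT1, UHRF1 and HELLS lie higher in all 8 SLIRP siRNA libraries than in any NS library, and the other 6 genes overlap.

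The first question was whether lowering SLIRP changed these genes. With vehicle and DHT libraries pooled, 4 of the 10 members rose with SLIRP siRNA, EZH2, DNMT1, UHRF1 and HELLS, and 0 fell. Of the 10167 genes tested, 17.8% were called higher and 17.4% lower at the same threshold, a false discovery rate (FDR, the adjusted p of edgeR's quasi-likelihood test) of 0.01. The rises were found in 1 of 6 PRC2 genes and in 3 of 4 DNA methylation genes. The median log2 fold change of the 10 was 0.35, against -0.01 over all genes tested. The lowest of the 8 SLIRP siRNA libraries stood above the highest of the 8 NS libraries in each of these 4 genes, a separation that 7.89% of all genes tested showed.

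EZH2, the catalytic subunit of PRC2 in dividing cells (Entrez 2146, hg19 chromosome 7, 148504349 to 148581413, minus strand), measured 10, 18.5, 25.1 and 20.9 CPM in NS-Veh replicates 1 to 4. It measured 47.4, 64.2, 30.9 and 45.6 CPM in SLIRP-Veh. All 4 knockdown libraries were above all 4 controls, with a narrow gap between 25.1 and 30.9 CPM. How many of all genes tested split in this way, 4 against 4, was not counted, and EED did so in vehicle without being called. With DHT, EZH2 measured 14.7, 17.7, 27.9 and 27.8 CPM in NS-1nM DHT. It measured 66.5, 69.1, 43.7 and 54.7 CPM in SLIRP-1nM DHT. The groups were again separate. Over all libraries EZH2 rose by 1.26 on the log2 scale (standard error 0.17), a fold change of 2.40 with a 95% interval of 1.89 to 3.05 (edgeR FDR = 2.81e-07). The log2 rise was 1.18 in vehicle (edgeR FDR = 1.51e-04) and 1.35 with DHT (edgeR FDR = 3.44e-06).

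EZH1, the other catalytic subunit (Entrez 2145, chromosome 17, 40852293 to 40897067), lay between 15.3 and 33.1 CPM in the NS libraries and between 18.8 and 33.7 CPM in the SLIRP siRNA libraries. Its log2 fold change of 0.24 had a 95% interval of -0.09 to 0.57 and did not pass (edgeR FDR = 0.234). The balance of EZH2 to EZH1 was taken as the ratio of their counts within a library, which needs no scaling between libraries. In vehicle it was 0.385, 1.14, 0.927 and 1.37 with NS and 1.40, 3.42, 1 and 1.93 with SLIRP siRNA. With DHT it was 0.538, 0.92, 0.842 and 0.974 with NS and 2.43, 2.13, 1.45 and 1.74 with SLIRP siRNA. With DHT the groups were separate, at 0.819 ± 0.195 for NS and 1.94 ± 0.429 for SLIRP siRNA (SD, n = 4 each). In vehicle they overlapped, at 0.956 ± 0.421 and 1.94 ± 1.06. These ratios rest on as few as 5 EZH2 and 7 EZH1 counts. The pair was chosen with results known, and EZH2 alone was already separate, so the ratio is no support apart from the fold changes.

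The core subunits without catalytic activity showed no called change. SUZ12 (Entrez 23512, chromosome 17, 30264026 to 30328057) lay between 142.1 and 206.4 CPM in NS and between 118.2 and 215.8 CPM in SLIRP siRNA libraries, with a log2 fold change of -0.21 (edgeR FDR = 0.0902). EED (Entrez 8726, chromosome 11, 85912254 to 85989855) lay between 8.01 and 21.8 CPM in NS and between 12.9 and 40.9 CPM in SLIRP siRNA libraries, with a log2 fold change of 0.45 and an interval of 0.04 to 0.87 (edgeR FDR = 0.0674). RBBP4 (Entrez 5928, chromosome 1, 33116743 to 33151812), which also serves in histone deacetylase complexes, was the most precisely measured member, with 0.04 and an interval of -0.09 to 0.17 (edgeR FDR = 0.624). JARID2 (Entrez 3720, chromosome 6, 15246300 to 15522273) had 0.13 and an interval of -0.10 to 0.35 (edgeR FDR = 0.354). Over all libraries, the upper bounds of the 5 uncalled PRC2 genes, 0.87 at most, lay under the lower bound of EZH2, 0.92. The differences between genes were not tested, and the bounds overlapped within either treatment. In vehicle EED reached 1.01 and EZH1 0.84, against a lower bound of 0.70 for EZH2. With DHT, EED reached 1.04 against 0.92. All 4 SLIRP-Veh libraries of EED lay above all 4 NS-Veh libraries, without a call (edgeR FDR = 0.296).

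Under DHT, single libraries decided whether SUZ12 and EED were called. SUZ12 was at -0.28 there (edgeR FDR = 0.0808) and at -0.45 without SLIRP-1nM DHT replicate 2, whose 215.8 CPM was the highest of all libraries (edgeR FDR = 0.00375). EED was at 0.52 (edgeR FDR = 0.11) and at 0.85 without SLIRP-1nM DHT replicate 4, which at 12.9 CPM was below every NS library with DHT (edgeR FDR = 0.00436). The pseudogene entry SUZ12P, which is nearly identical in sequence to part of SUZ12, held 5 to 44 counts per library and had a log2 fold change of 0.42 (edgeR FDR = 0.0967), so a share of SUZ12 reads may have been assigned to it or from it. RBBP4 has 7 annotated pseudogenes, and EZH2, EED and DNMT3A have 1 each, so their counts carry the same uncertainty. An exon of EED overlaps a noncoding RNA on the opposite strand. An exon of RBBP4 overlaps SYNC on the opposite strand, and SYNC had at most 1 count in a library.

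DNMT1, the maintenance methyltransferase (Entrez 1786, chromosome 19, 10244018 to 10341962, minus strand), measured 40.0, 48.7, 64.7 and 73.1 CPM in NS-Veh. It measured 166.3, 144.0, 157.4 and 121.8 CPM in SLIRP-Veh. The lowest knockdown library was well above the highest control. With DHT, DNMT1 measured 53.5, 74.0, 81.0 and 89.2 CPM in NS cells. It measured 258.2, 198.8, 182.6 and 168.9 CPM in SLIRP siRNA cells. Here too no library overlapped. DNMT1 rose by 1.33 on the log2 scale over all libraries (standard error 0.13), a fold change of 2.52 with an interval of 2.09 to 3.03 (edgeR FDR = 1.11e-09). The log2 rise was 1.27 in vehicle (edgeR FDR = 5.68e-08) and 1.40 with DHT (edgeR FDR = 4.81e-10). DNMT1 shares an exon overlap on the same strand with S1PR2, whose own entry held 4 to 21 counts per library and a log2 fold change of -0.13 (edgeR FDR = 0.688).

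UHRF1, the partner that recruits DNMT1 to half-methylated DNA (Entrez 29128, chromosome 19, 4903092 to 4962165, plus strand), measured 10, 11.6, 21.1 and 29.7 CPM in NS-Veh. It measured 49.1, 61.1, 45.7 and 41.2 CPM in SLIRP-Veh. The highest control stayed under the lowest knockdown library, although the 2 shallow controls had only 5 counts each. With DHT, UHRF1 measured 31.5, 33.9, 34.8 and 35.8 CPM in NS cells. It measured 88.7, 93.1, 59.2 and 62.7 CPM in SLIRP siRNA cells. These groups were separate, and the 4 NS libraries lay close together. UHRF1 rose by 1.11 on the log2 scale over all libraries (standard error 0.18), a fold change of 2.15 with an interval of 1.66 to 2.79 (edgeR FDR = 9.76e-06). The log2 rise was 1.20 in vehicle (edgeR FDR = 5.63e-05) and 1.11 with DHT (edgeR FDR = 6.38e-06).

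HELLS, the remodelling ATPase (Entrez 3070, chromosome 10, 96305086 to 96373662, plus strand), measured 12, 18.5, 17.2 and 17.7 CPM in NS-Veh. It measured 65.1, 73.6, 56.5 and 57.8 CPM in SLIRP-Veh. The gap between the groups, from 18.5 to 56.5 CPM, was the widest in proportion among the 4 genes. With DHT, HELLS measured 31.5, 19.3, 38.3 and 35.8 CPM in NS cells. It measured 106.9, 108.6, 102.9 and 67.6 CPM in SLIRP siRNA cells. No library overlapped. HELLS had the largest fold change of the 10 over all libraries, a rise of 1.66 on the log2 scale (standard error 0.19), or 3.16 times with an interval of 2.43 to 4.11 (edgeR FDR = 1.29e-08), whose lower part overlaps the intervals of the other 3. The log2 rise was 1.90 in vehicle (edgeR FDR = 1.31e-08) and 1.60 with DHT (edgeR FDR = 2.90e-09). An exon of HELLS overlaps a noncoding RNA on the same strand.

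DNMT3A, the methyltransferase that acts without a template mark (Entrez 1788, chromosome 2, 25450724 to 25565459, minus strand), did not share this pattern. It measured 36, 44, 39.6 and 43.4 CPM in NS-Veh, and 46.8, 39.1, 43.1 and 31.6 CPM in SLIRP-Veh. In vehicle the groups overlapped fully, with a log2 fold change of -0.01 and an interval of -0.43 to 0.40 (edgeR FDR = 0.973). With DHT it measured 46.1, 45.5, 44.4 and 29.2 CPM in NS cells and 32.6, 43.7, 17.5 and 20.9 CPM in SLIRP siRNA cells. Of the knockdown libraries, 2 lay below all 4 controls and 2 within their range. The log2 fold change of -0.59 (interval -1.03 to -0.16) did not pass (edgeR FDR = 0.0278). It passed without NS-1nM DHT replicate 4 (-0.72, edgeR FDR = 0.00957) or without SLIRP-1nM DHT replicate 2 (-0.84, edgeR FDR = 0.00323). The ratio of DNMT1 to DNMT3A counts within a library was 1.38 ± 0.319 with NS and 3.69 ± 0.127 with SLIRP siRNA in vehicle, and 1.91 ± 0.806 with NS and 7.75 ± 2.43 with SLIRP siRNA under DHT (SD, n = 4 each). Its highest NS value was 3.05 and its lowest SLIRP siRNA value 3.56, so the 2 siRNAs did not overlap. The pair was chosen with results known, and DNMT1 alone was already separate. The ratio is therefore no support apart from the fold changes.

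**Figure D2:**
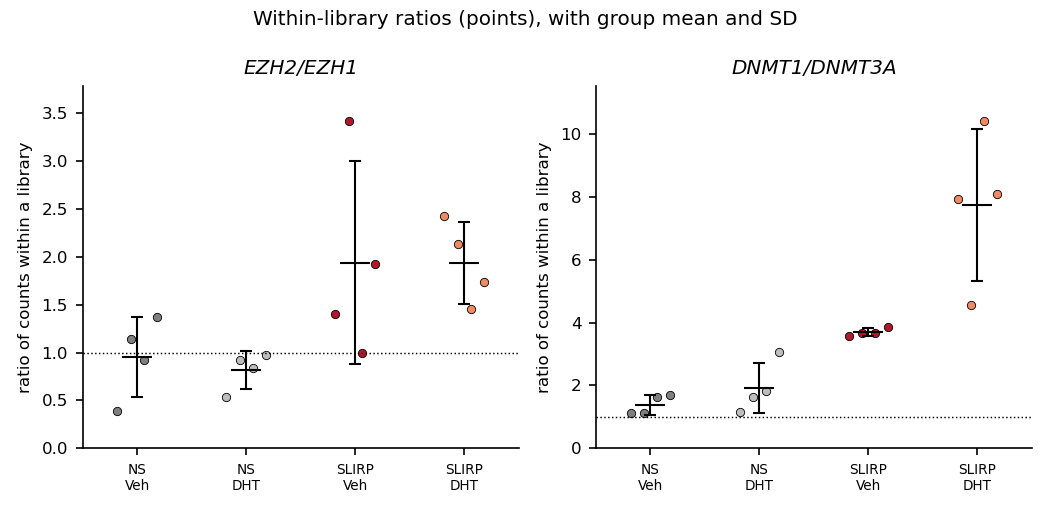
Ratio of the counts of EZH2 to EZH1 (left) and of DNMT1 to DNMT3A (right) within each library, with the mean and SD of 4 libraries per group. The dotted line marks equal counts. The DNMT1 to DNMT3A ratio is at most 3.05 in NS and at least 3.56 in SLIRP siRNA libraries, while EZH2 to EZH1 overlaps between the siRNAs in vehicle. Both pairs were chosen with results known.

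The vehicle and DHT comparisons set different libraries against each other but came from 1 model with a shared estimate of the spread. The same 4 members were called higher in both, with 0 called lower, and also when each pair of groups was fitted alone. In vehicle 11.8% of the 10684 genes tested were called higher and 9.95% lower, and with DHT 12.8% and 11.6%. Leaving out both shallow NS-Veh libraries, a choice made after seeing the depths, left these 4 called in vehicle, at 1.00 for EZH2 (edgeR FDR = 0.00329), 1.10 for DNMT1 (edgeR FDR = 1.08e-05), 0.94 for UHRF1 (edgeR FDR = 0.00205) and 1.84 for HELLS (edgeR FDR = 1.18e-06).

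**Figure D3:**
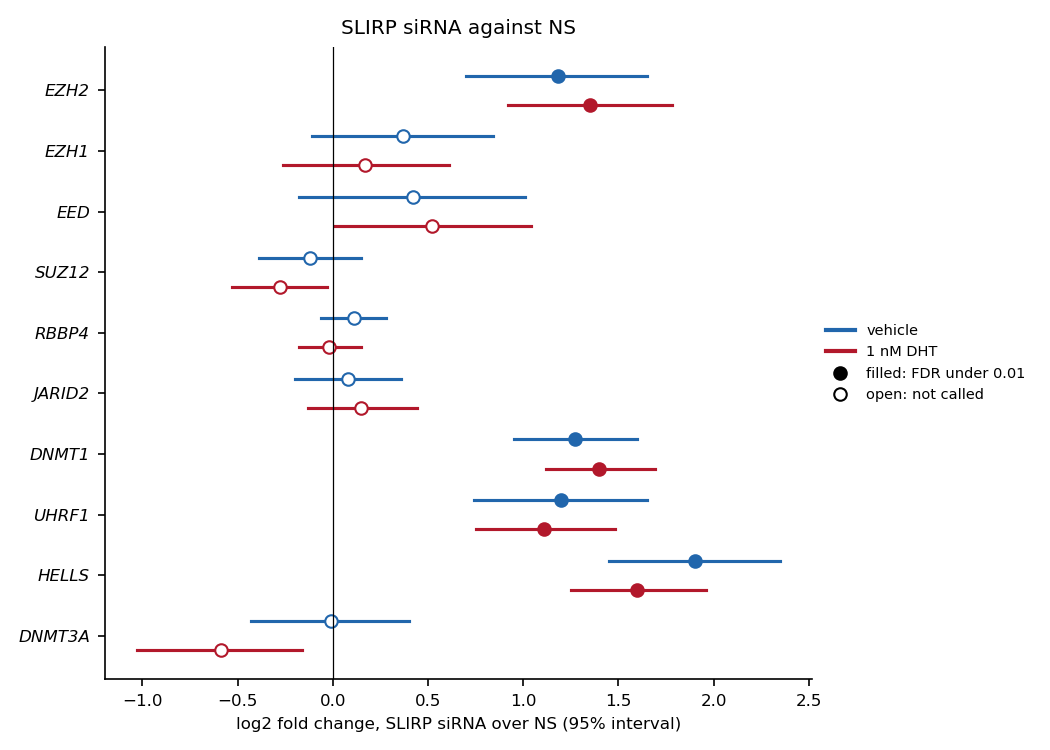
Log2 fold change of SLIRP siRNA over NS (horizontal axis) for each gene in vehicle (blue) and with 1 nM DHT (red), with 95% intervals. Filled points passed an FDR of 0.01. EZH2, DNMT1, UHRF1 and HELLS lie between 1.11 and 1.90 in both, and the other 6 between -0.59 and 0.52.

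The second question was whether androgen changed these genes. In NS cells 0 of the 10 members were called by edgeR in either direction, where 0.849% of the 10367 genes tested were called higher and 0.463% lower. DESeq2 and limma on the normalized table also called 0. An unadjusted p under 0.05 was seen for 4 members and for 14.3% of all genes tested. HELLS had the largest estimate, 0.88 on the log2 scale with an interval of 0.39 to 1.37 (edgeR FDR = 0.0387), and all 4 of its DHT libraries were above all 4 vehicle libraries. It would be called at an FDR of 0.05, and it was called at 1.07 without NS-1nM DHT replicate 2 (edgeR FDR = 0.0068). UHRF1 had 0.69 with an interval of 0.23 to 1.15 (edgeR FDR = 0.0985), also with separate groups, and 0.44 without the 2 shallow vehicle libraries (edgeR FDR = 0.4). SUZ12 had 0.24 (edgeR FDR = 0.198), with separate groups too, and JARID2 -0.34 (edgeR FDR = 0.227). The gaps were narrow, from 18.5 to 19.3 CPM for HELLS, 29.7 to 31.5 CPM for UHRF1 and 171.8 to 172.7 CPM for SUZ12. How many of all genes tested split 4 against 4 was not counted. EZH2 had 0.12 with an interval of -0.40 to 0.64, and DNMT1 0.29 with an interval of -0.03 to 0.62. At this depth, the EZH2 interval spans 0.757 to 1.56 times, so a doubling by DHT lies outside it. Changes within it could not be told from none.

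In SLIRP siRNA cells edgeR called 0 of the 10 members for DHT, where 0.636% of 10684 genes were called higher and 0.534% lower. DESeq2 and limma again called 0, and an FDR of 0.05 would call HELLS and UHRF1. An unadjusted p under 0.05 was seen for 4 members and for 15.6% of all genes tested. HELLS had 0.59 with an interval of 0.26 to 0.91 (edgeR FDR = 0.0332), UHRF1 0.61 with 0.25 to 0.97 (edgeR FDR = 0.0475), DNMT1 0.43 with 0.16 to 0.70 (edgeR FDR = 0.0654) and DNMT3A -0.58 with -1.03 to -0.14 (edgeR FDR = 0.159). The DNMT1 groups were separate, from 166.3 CPM at most in vehicle to 168.9 CPM at least with DHT. The share of all genes that split this way was not counted either. Without a filter on low counts DNMT1 and HELLS passed (edgeR FDR = 0.00715 and 0.00789), and without SLIRP-1nM DHT replicate 4 HELLS passed at 0.77 (edgeR FDR = 0.00284). The PRC2 subunits lay between -0.26 for JARID2 and 0.43 for EED.

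The DHT response was not called different between the siRNAs for any member, with 0 of 10 by edgeR, DESeq2 and limma alike and 0 at an unadjusted p under 0.05. Over all 10684 genes edgeR called 0%. The difference was largest for DNMT3A, at -0.58 with an interval of -1.18 to 0.02. For EZH2 it was 0.18 with an interval of -0.48 to 0.84, for DNMT1 0.13 with -0.31 to 0.57, and for HELLS -0.30 with -0.89 to 0.30. These intervals leave room for differences of about the size of the DHT estimates themselves.

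**Figure D4:**
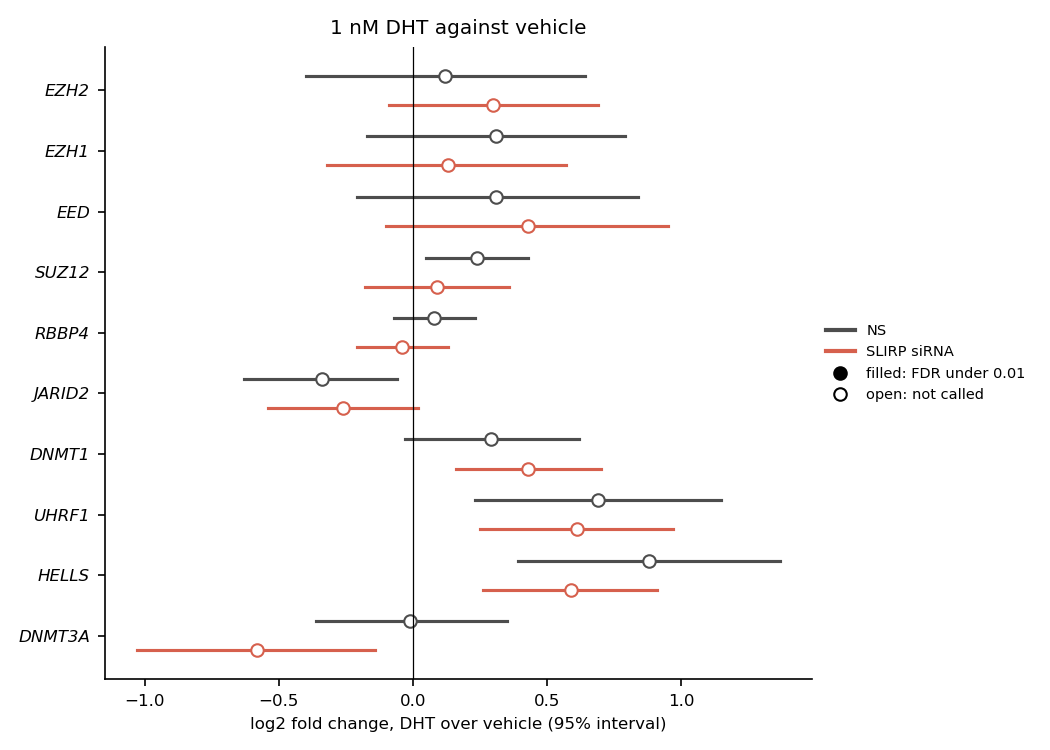
Log2 fold change of 1 nM DHT over vehicle (horizontal axis) for each gene in NS (dark) and SLIRP siRNA cells (red), with 95% intervals. No point passed an FDR of 0.01. UHRF1 and HELLS have intervals above 0 in both, from estimates of 0.59 to 0.88. SUZ12 in NS and DNMT1 in SLIRP siRNA cells also have intervals above 0. JARID2 in NS and DNMT3A in SLIRP siRNA cells have intervals below 0.

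The genes with the pattern most like EZH2 over the 16 libraries, by the root mean square difference of gene-centred log2 CPM among 5075 genes that averaged 50 counts or more, were CHAF1A (0.216), HMMR (0.232), ARHGAP11A (0.279), TCOF1 (0.284) and TMPO (0.287), against a median gene at 0.786. CHAF1A is a subunit of the chromatin assembly factor that deposits histones behind the replication fork. For DNMT1 they were MCM7 (0.185), CHAF1A (0.197), ARHGAP11A (0.201), KIF11 (0.208) and NCAPG2 (0.209), against a median of 0.796. MCM7 belongs to the replicative helicase and KIF11 is a kinesin of the mitotic spindle. Among the members, EZH2 was closest to DNMT1 (0.293), then to UHRF1 (0.394) and HELLS (0.422). Its own complex partners were farther away, EED at 0.557, RBBP4 and JARID2 both at 0.748, and SUZ12 at 0.816. The distance takes in the siRNA change itself, so this order is no support apart from the fold changes above.

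Genes of proliferating cells moved together with these 4 members. All 20 proliferation genes listed were called higher with SLIRP siRNA over all libraries, against 17.8% of all genes tested. Their median was 1.40 on the log2 scale. RRM2 (2.11, edgeR FDR = 2.55e-11) and TYMS (2.22, edgeR FDR = 7.19e-13), both enzymes of nucleotide supply, rose most. In vehicle the summed level of the 20 genes was 524.4 to 928.9 CPM with NS and 2552.1 to 2764.9 CPM with SLIRP siRNA. Under DHT it was 1077.8 to 1559.7 CPM with NS and 3287.0 to 3645.4 CPM with SLIRP siRNA. The group means of EZH2, DNMT1, UHRF1 and HELLS had the same order, lowest in NS-Veh and highest in SLIRP-1nM DHT. With DHT in NS cells 7 of 19 proliferation genes tested were called higher, with a median of 0.65, against 0.849% of all genes tested. In SLIRP siRNA cells 4 of 20 were called higher, with a median of 0.30, against 0.636%. The part of proliferation in the rise of the members was not tested. Interferon-stimulated genes moved the other way, with 10 of 11 tested called lower with SLIRP siRNA, against 17.4% of all genes tested. Among them were IFI6 (-3.74, edgeR FDR = 2.91e-18) and IFIT1 (-4.29, edgeR FDR = 4.55e-16). The summed level of the listed interferon-stimulated genes was 962.0 to 1429.1 CPM in the NS and 281.4 to 349.8 CPM in the SLIRP siRNA libraries. Its part was not tested either. None of the 10 members holds the letters TATGTGC, which pair with bases 2 to 8 of the guide strand of the nonsense siRNA, in the 3′ untranslated region of its canonical transcript, against 11.2% of the 8621 tested genes with such a region.

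Other parts of the same machinery were taken from gene lists. Among the further DNA methylation genes, 5 of 12 tested were called higher over all libraries with SLIRP siRNA and 0 lower, with a median of 0.25, where 17.8% of all genes were called higher. In vehicle alone 1 of the 12 was called higher, CDCA7L at 0.98 (edgeR FDR = 1.41e-05), against 11.8% of all genes, and with DHT alone 4 of 12 against 12.8%. Over all libraries CDCA7L (1.18, edgeR FDR = 2.30e-09) and USP7 (0.36, edgeR FDR = 3.55e-04), a deubiquitinase that stabilises DNMT1 and UHRF1, had the largest rises among those with a mean count of 30 or more. The other 3, named after their values were seen, were CDCA7, a partner of HELLS (0.99, edgeR FDR = 9.61e-04), the methyltransferase DNMT3B (0.86, edgeR FDR = 0.00305) and the methyl-DNA reader MBD2 (0.31, edgeR FDR = 0.00941). CDCA7 and DNMT3B had mean counts of only 15.8 and 12.4. In vehicle alone DNMT3B was at 0.64 (edgeR FDR = 0.167) and CDCA7 at 0.75 (edgeR FDR = 0.0843).

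Of 6 accessory and second-copy subunits of PRC2 tested, 0 were called higher and 1 lower, LCOR, at -0.82 (edgeR FDR = 4.43e-05), with a list median of -0.25. Over all genes 17.8% were called higher and 17.4% lower. The LCOR gene also gives a corepressor of nuclear receptors, and counts per gene do not tell its products apart. In PRC1, the complex that binds H3K27 methylation and adds ubiquitin to histone H2A, 3 of 18 tested were called higher and 0 lower, with a median of -0.15. They were CBX2 (0.59, edgeR FDR = 1.15e-04), KDM2B (0.56, edgeR FDR = 4.73e-04) and CBX6 (0.36, edgeR FDR = 9.05e-04, named after its value was seen). This share of 16.7% lies near the 17.8% of all genes.

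Among the 6 enzymes that undo these marks, TDG (0.79, edgeR FDR = 3.46e-09), a glycosylase of DNA demethylation, and TET3 (0.27, edgeR FDR = 0.00519) were called higher. KDM6A, which removes H3K27 methylation, was called lower at -0.44 (edgeR FDR = 3.11e-07), from 624.8 ± 36.2 CPM in NS to 461.2 ± 32.2 CPM in SLIRP siRNA cells (SD, n = 8 each). EZH2 and KDM6A thus moved in opposite directions, while KDM6B, which also removes H3K27 methylation, was at -0.14 and not called (edgeR FDR = 0.244). Of these 6 enzymes 33.3% were called higher and 16.7% lower, beside 17.8% and 17.4% of all genes tested. The heterochromatin readers split among themselves. CBX5 rose by 1.10 on the log2 scale (edgeR FDR = 4.55e-16), from 523.3 ± 35.6 to 1127.8 ± 61.7 CPM, while CBX3 fell by 1.14 (edgeR FDR = 7.58e-13) and CBX1 fell by 0.40 (edgeR FDR = 3.55e-04). With the H3K9 methyltransferases SUV39H2 (0.77, edgeR FDR = 2.43e-06) and SETDB1 (-0.32, edgeR FDR = 0.00876, named after its value was seen), 2 of 10 in this list were called higher and 3 lower, with a median of -0.01. These shares of 20% and 30% stand beside the 17.8% and 17.4% of all genes tested.

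Among 12 genes of histone deacetylase complexes, 4 were called higher and 2 lower, with a median of 0.05. As shares, 33.3% were higher and 16.7% lower, beside 17.8% and 17.4% of all genes tested. The deacetylases HDAC3 (0.79, edgeR FDR = 1.88e-05) and HDAC2 (0.67, edgeR FDR = 6.67e-09) rose most, and CHD3 (-0.57, edgeR FDR = 1.59e-09) and MTA1 (-0.49, edgeR FDR = 1.30e-04), subunits of a nucleosome remodelling complex, were called lower. The other 2 higher ones, MTA2 (0.38, edgeR FDR = 3.98e-05) and KDM1A (0.30, edgeR FDR = 0.00738), were named after their values were seen. Genes known to be silenced by PRC2 or DNA methylation in prostate cancer cells were mostly too low to test. Of 14 listed, 5 passed the filter, with a median of -0.02. APC was called higher (0.41, edgeR FDR = 0.00113) and CDH1, the epithelial cadherin, lower (-0.25, edgeR FDR = 3.60e-04). Each is 20% of the 5 tested, near the 17.8% and 17.4% of all genes tested. Neither was silent in these cells. APC averaged 77.8 CPM in NS and 101.2 CPM in SLIRP siRNA libraries, and CDH1 905.6 and 764.0 CPM. GSTP1, a gene methylated in LNCaP, was at no more than 0.731 CPM in any library. Neither H3K27 methylation nor DNA methylation was measured in these data.

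**Figure D5:**
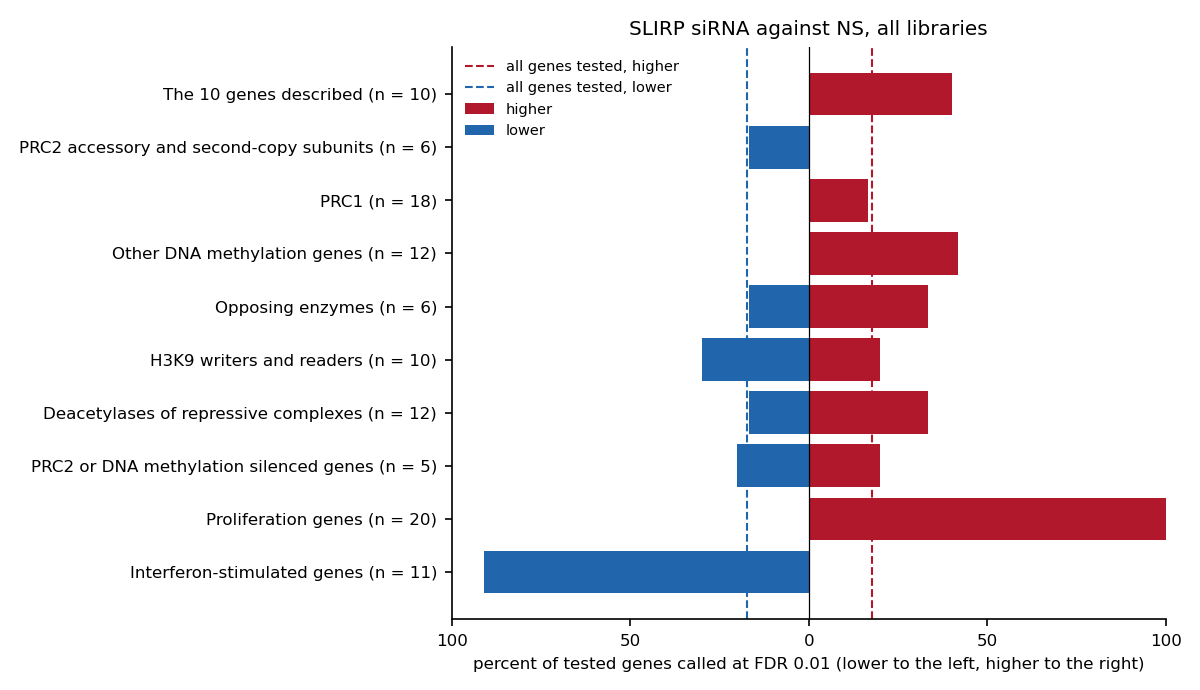
Percent of the tested genes of each list called higher (red, to the right) or lower (blue, to the left) with SLIRP siRNA over all libraries. Dashed lines mark the share among all 10167 genes tested, 17.8% and 17.4%. The proliferation list is at 100% higher, and the other lists are described in the text by their counts.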

How the data were processed

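Total RNA of 16 LNCaP libraries was sequenced as short single reads. After alignment to hg19 the authors deposited estimated counts per gene, rounded to whole numbers, for 20531 entries, of which 29 have no symbol. The submitters' processing notes name CASAVA and RSEM without versions. The authors also deposited a normalized score for 13148 genes (counts over the upper quartile of the library), used here only as an alternative. Whether counting used strand is not given in the sources used here.

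The estimated counts were analysed with edgeR 4.0.16 in R 4.3.3 (TMM, filterByExpr, glmQLFit and glmQLFTest, Benjamini-Hochberg adjustment over all genes tested, FDR of 0.01). The 8 SLIRP siRNA libraries were compared with the 8 NS libraries without a covariate, the DHT effect in NS cells used the 8 NS libraries alone, and other contrasts came from a 4-group model over 16 libraries. Standard errors are the log2 fold change over the square root of F. Log2 CPM used a prior count of 2. Members were named in full, and from each list up to 2 largest rises and 2 largest falls with a mean count of at least 30. Members and lists were chosen with earlier results of these data known. The study's methods describe biological replicates taken in more than one experiment, but the labels do not tie libraries to experiments, so p-values measure the spread between these libraries, and floors of 3 counts cover counting error only. Coordinates and transcripts are from GENCODE on hg19, promoters from RefSeq on GRCh38.p14. Alternatives were DESeq2 1.42.0, upper-quartile scaling, other filters, a treatment covariate, a replicate block, other sample sets, an FDR of 0.05, limma 3.58.1 on the normalized score (pseudocount 1) and leaving out libraries. Figures used matplotlib 3.10.9 and Python 3.11.15.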

Additional observations from a re-analysis of the deposited data

Results flagged for a closer look

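Of 40 sets of 4 libraries (10 genes in 4 groups), 4 held a library whose gap to the nearest of the others took up most of the range of its group. Chance alone gives such a gap in about 1 of 20 sets. EED was lowest in NS-Veh replicate 1, at 8.01 CPM from 4 counts, with the others between 16.2 and 16.9 CPM. RBBP4 was highest in SLIRP-Veh replicate 2, at 446.2 CPM, with the others between 385.7 and 394.2 CPM. HELLS was lowest in SLIRP-1nM DHT replicate 4, at 67.6 CPM, with the others between 102.9 and 108.6 CPM, and it was still above the highest NS library. DNMT3A was lowest in NS-1nM DHT replicate 4, at 29.2 CPM, with the others between 44.4 and 46.1 CPM.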

How the results depend on the processing

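The 4 members called higher with SLIRP siRNA over all libraries, EZH2, DNMT1, UHRF1 and HELLS, stayed called under each alternative that tested them, at 1.19 to 1.37, 1.24 to 1.41, 0.98 to 1.32 and 1.58 to 1.79 on the log2 scale. A minimum of 10 counts in every library removed EZH2, EZH1, EED, UHRF1 and HELLS from the test and left 1 called, DNMT1, in each of the 3 siRNA comparisons. With DHT the count lay between 4 and 6 when 1 library was left out. For DHT in NS cells, an FDR of 0.05 called 1 member (HELLS), and leaving out a library gave 0 to 1, with HELLS called at 1.07 without NS-1nM DHT replicate 2 (edgeR FDR = 0.0068). In SLIRP siRNA cells an FDR of 0.05 called 2, no filter on low counts called 2, and leaving out a library gave 0 to 1.

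With the replicate number as a block, 1 member was called for DHT in NS cells (HELLS at 0.98, edgeR FDR = 0.00637), and no other count of called members changed. The labels do not say that equal numbers share an experiment. Deviations of libraries with the same number correlated at 0.000111 to 0.201 over the pairs of groups, and not every library correlated best with its own number. Between NS-Veh and NS-1nM DHT the values were 0.158, 0.0504, 0.138 and 0.201 for replicates 1 to 4. There all but NS-Veh replicate 2 correlated best with their own number.

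Signs turned only among values that were not called, and the cause was not tested. For DHT in NS cells, EZH2 was at -0.06 without the 2 shallow libraries and at -0.03 to 0.33 leaving out 1 library, and DNMT3A was at 0.01 with limma and at -0.07 to 0.14 leaving out 1. With SLIRP siRNA, DNMT3A in vehicle ran from -0.15 to 0.11 and RBBP4 with DHT from -0.07 to 0.07. For DHT in SLIRP siRNA cells, SUZ12 ran from -0.08 to 0.24 and RBBP4 from -0.09 to 0.05. For the difference in DHT response, leaving out 1 library gave -0.03 to 0.35 for EZH2, -0.44 to 0.01 for EZH1, -0.09 to 0.44 for EED, -0.01 to 0.26 for DNMT1 and -0.41 to 0.07 for UHRF1. There limma gave -0.14 for EED and -0.01 for DNMT1, and UHRF1 was at 0.19 without the 2 shallow libraries. The depth limits EZH2, EED, UHRF1 and HELLS most, with 4 to 8 counts in the shallow NS-Veh libraries.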
